A study of Mus musculus with 9 samples.

Results

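The miR-101 family of the mouse was read in liver as mmu-miR-101a-3p, mmu-miR-101b-3p and mmu-miR-101c (mmu, for mouse, is left off below), the 3 members chosen by their names among the 1881 mouse miRNAs on the array. Of these, miR-101a-3p and miR-101c could be tested, because both were detected on all 9 arrays, and miR-101b-3p was detected on 0 of 9 in the reading used here. The arrays are one-colour Agilent mouse miRNA arrays, each hybridised with RNA from the pooled livers of 4 males of the inbred mouse strain C57BL/6J, aged 20 weeks, with 3 pools per group. Control mice were kept on chow over 17 weeks, starting when 3 weeks old, and no vehicle is stated for them. High fat diet mice were fed for those 17 weeks on chow in which fat supplied 45% of the calories and received saline by stomach tube for the last 5 weeks. Metformin mice ate that same fat-rich diet and received metformin, a glucose-lowering medicine for diabetes, at 3 mg per kg per day over those 5 weeks. The spread between arrays is therefore a spread between pools, and the p-values apply to pools and not to single mice.

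A miRNA guides a silencing complex to messenger RNAs that pair with its seed, bases 2 to 8 from the 5′ end, and lowers their translation and stability. miR-101 is known for repressing Ezh2, the enzyme of the Polycomb complex that places a silencing mark on histone H3, and for repressing genes needed for autophagy, the breakdown of cell contents in lysosomes. It is widely studied in liver as a miRNA that is low in hepatocellular carcinoma.

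The mature sequences below show how near the members are to each other, which bears on what each probe can read. They come from RefSeq (GRCm38.p6), run 5′ to 3′, and carry the seed in capitals.
miR-101a-3p: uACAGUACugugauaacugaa
miR-101b-3p: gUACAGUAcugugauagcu
miR-101c: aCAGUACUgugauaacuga
miR-144-3p: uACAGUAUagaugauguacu
All 19 bases of miR-101c are bases 2 to 20 of miR-101a-3p, with 0 mismatches. The pair of annotated miRNAs thus differs only in where each begins and ends, and the later start moves the seed by 1 base. miR-101b-3p begins 1 base earlier than miR-101a-3p and differs from it in 1 of 18 aligned bases, A16G, counted from the 5′ end of miR-101a-3p. As annotated, the 3 members therefore have 3 different seeds, and 0 of the 1679 mature miRNAs in the RefSeq table share bases 2 to 8 with any of them. Over bases 2 to 7, miR-144-3p, a miRNA of red cell precursors, matches miR-101a-3p, and miR-582-5p matches miR-101b-3p. Both of these were detected on 0 of 9 arrays by the scanner software. The probes' own sequences were not used here, so how far the miR-101c probes also bind miR-101a-3p was not tested.

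The precursors show where the strands lie, with the 3p strand in capitals.
Mir101a: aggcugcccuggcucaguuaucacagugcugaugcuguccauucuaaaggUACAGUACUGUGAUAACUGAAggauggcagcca
Mir101b: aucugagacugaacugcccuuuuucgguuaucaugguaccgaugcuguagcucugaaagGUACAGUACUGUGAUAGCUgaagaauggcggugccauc
Mir101a lies on the minus strand of chromosome 4 within the non-coding gene E130102H24Rik, between the protein-coding genes Jak1, a cytokine receptor kinase, and Ak4, an adenylate kinase. Mir101b lies on the plus strand of chromosome 19 within Rcl1, a gene for ribosomal RNA processing, with Ak3 and Jak2 as its protein-coding neighbours. The 2 loci are thus flanked by genes of the same 2 families. Mir101c lies on the minus strand of chromosome 9, with Alkbh8, a tRNA-modifying enzyme, as the next protein-coding gene.

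On 6 of the 9 arrays, strips of columns at an edge gave little signal at the positions of bright probes, on 3 control arrays, 2 high fat diet arrays and 1 metformin array. The strips held between 31.1% and 53.6% of the spots of those arrays. The strips thus fell unequally on the groups. All values below come from the spots outside the strips, called the reading without strips, unless the reading with all spots is named. The intensity used for scaling lay between 193 and 225 on control, 221 and 323 on high fat diet and 231 and 252 on metformin arrays.

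**Figure D1:**
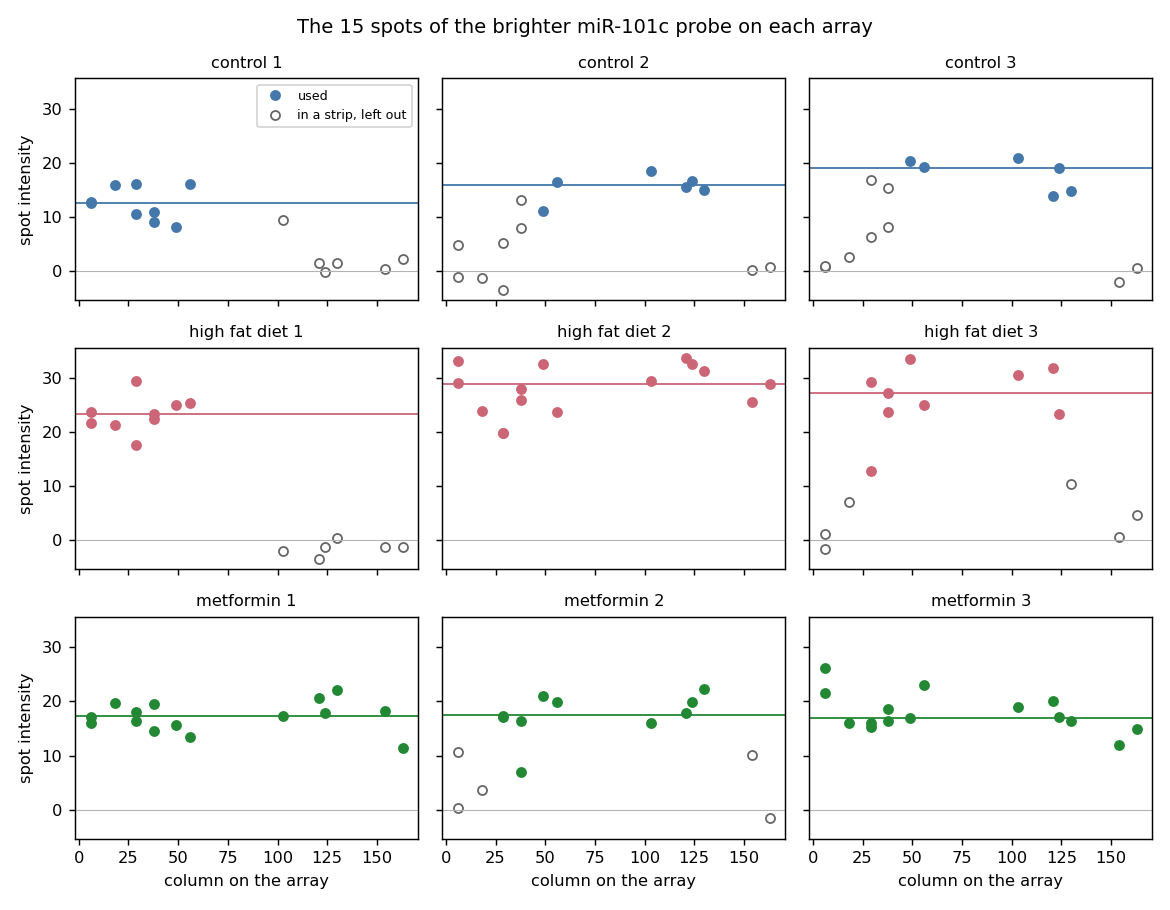
Background-subtracted intensity of the 15 spots of the brighter miR-101c probe (vertical axis, scanner units) against their column (horizontal axis), with 1 panel per array. Filled points were used, open points lie in a strip and were left out, and the coloured line is the median of the used spots; that median lies between 23.3 and 28.9 in the high fat diet panels and between 12.5 and 19.1 in the others.

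Each member was read by 2 probes with 15 spots each. For the brighter miR-101c probe, the median of its spots inside the strips lay between -1.21 and 3.58 in intensity on the 6 arrays, against 12.5 to 28.9 outside. In parts of the strips the signal of bright probes was found 2 rows from its place. On the first high fat diet array, 64.6% of the bright spots of the right strip regained their level there, against 10.9% at their own place. For miR-101c on that array, 5 displaced spots read a median of 21.0 at 2 rows away, against -1.19 at their own place and 23.3 outside the strip. For miR-101a-3p, 4 displaced spots read 46.5, 0.593 and 49.3 in the same order. In that strip the members' signal was thus found 2 rows from its place, at levels that differed from those outside the strip by less than the spread of the spots. On that array the coefficient of variation of the used spots was 12.1% for miR-101a-3p and 13.85% for miR-101c. Displaced spots were read only in steps of columns where at least 80% of bright spots regained their level. A like level therefore partly follows from that choice. Over all strips the share regained 2 rows away ranged from 4.17% to 64.6%, so the other strips were read in this way only in part, with at most 3 spots of a member. There miR-101c read 10.5 against 12.5 outside the strip on the first control array (2 spots), 15.4 against 16.0 on the second (3 spots), 10.71 against 19.1 on the third (2 spots) and 18.8 against 27.2 on the third high fat diet array (1 spot). miR-101a-3p read 44.6 against 37.3 on the second control array and 35.2 against 43.7 on the third, with 1 spot each.

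miR-101a-3p, the founding member, was measured on every array. The unscaled median intensity of its brighter probe was 28.1, 37.3 and 43.7 in the control pools. It was 49.3, 60.3 and 58.0 in the high fat diet pools, against 40.2, 42.1 and 41.1 with metformin. Each high fat diet pool thus exceeded each control and each metformin pool. Part of this order was common to the array as a whole: of the 143 tested miRNAs, 43.4% were higher without overlap on the high fat diet arrays than on the control arrays before scaling, and the median miRNA was 0.38 higher on the log2 scale. Before scaling, miR-101a-3p was 0.64 higher. Of all tested, 16.8% were lower without overlap on the metformin than on the high fat diet arrays.

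After division by each array's 75th percentile of detected probes, the log2 level of miR-101a-3p was -2.78, -2.57 and -2.37 in the control pools. It was -2.17, -2.21 and -2.48 in the high fat diet pools and -2.65, -2.46 and -2.53 in the metformin pools. The third high fat diet array lay among the control and metformin arrays, so the groups overlapped. The mean was -2.57 ± 0.21 (SD, n = 3) in control, -2.29 ± 0.17 in high fat diet and -2.54 ± 0.10 in metformin livers.

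miR-101c, the shifted form, showed the same order. The unscaled median intensity of its brighter probe was 12.5, 16.0 and 19.1 in the control pools, 23.3, 28.9 and 27.2 in the high fat diet pools and 17.4, 17.5 and 17.0 in the metformin pools. The high fat diet arrays again stood above the other 6 before scaling. After scaling its log2 level was -3.94, -3.79 and -3.56 in the control pools and -3.25, -3.27 and -3.57 in the high fat diet pools. The third high fat diet array was level with the third control array, and the other two were higher. With metformin the level was -3.86, -3.72 and -3.80, below every high fat diet array and inside the control range. The means were -3.77 ± 0.19 (SD, n = 3) in control, -3.36 ± 0.18 in high fat diet and -3.79 ± 0.07 in metformin livers.

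**Figure D2:**
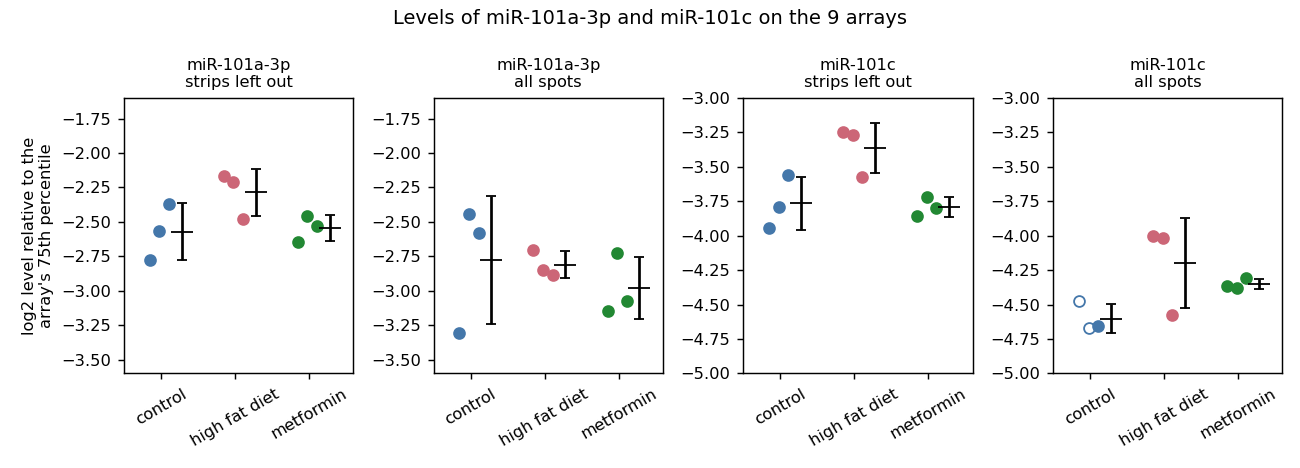
Log2 level relative to the array's 75th percentile (vertical axis) of miR-101a-3p and miR-101c by group, in the reading without strips and with all spots. Each point is 1 array (open where the miRNA was not detected), and bars are the mean ± SD of 3 arrays; without strips the mean of miR-101c is -3.77 in control, -3.36 in high fat diet and -3.79 in metformin livers.

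The first comparison sets high fat diet livers against control livers. Saline by stomach tube was given to the high fat diet mice and is not stated for the controls, so diet and tube cannot be told apart. Without strips, 20 of 143 miRNAs (14.0%) passed an adjusted p of 0.05 in limma, and 0 of the 2 testable members were among them. Both members had an unadjusted limma p under 0.05 (0.00791 for miR-101c and 0.0456 for miR-101a-3p), as did 51 of the 143 (35.7%). Leaving out 1 array at a time, the count past the adjusted threshold ranged from 6 without the first high fat diet array to 40 without the third control array. Over all settings tried it ranged from 0 to 40. miR-101c was 0.40 higher on the log2 scale in high fat diet than in control livers, a fold of 1.32 (SE 0.12, 95% interval 0.13 to 0.68, limma adjusted p = 0.0539). This was the fifth highest difference of the 143, where the median was 0.03. miR-101a-3p was 0.28 higher (SE 0.13, 95% interval 0.0068 to 0.56, limma adjusted p = 0.136), the 20th of 143. The exact permutation test, two-sided, gave p = 0.2 for each member, and with 3 against 3 arrays it cannot go below 0.1.

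Whether the members passed turned on single arrays and settings. Without the third control array, which alone lay on the second slide, the differences were 0.51 for miR-101c (limma adjusted p = 0.0214) and 0.39 for miR-101a-3p (limma adjusted p = 0.0482). Of all tested, 40 of 144 passed in that fit. Without the third high fat diet array, miR-101c was 0.51 higher (limma adjusted p = 0.0266), where 16 of 143 passed. When the test was limited to miRNAs detected on all arrays, 25 of 118 passed, miR-101c among them (limma adjusted p = 0.0446). With normexp background correction the log2 differences were -0.11 for miR-101c and -0.019 for miR-101a-3p, where the median over all 143 tested was -0.13. No slide row held both high fat diet and control arrays. The row was also fitted as a block on the first slide alone, so the third control array was again left out. There, linked through metformin arrays, the differences were 0.61 for miR-101c (limma adjusted p = 0.165) and 0.54 for miR-101a-3p (limma adjusted p = 0.212). In that fit 0 of 143 miRNAs passed (30 at an unadjusted limma p under 0.05).

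With all spots, where 9 of 139 miRNAs (6.47%) passed, miR-101c was 0.40 higher (limma adjusted p = 0.206) and miR-101a-3p was 0.036 lower, as a log2 difference of -0.036 (limma adjusted p = 0.960). In that reading miR-101c was detected on only 1 of 3 control arrays, and the median miRNA differed by -0.22. Relative to that median both members lay on the higher side, by 0.62 and 0.18.

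The second comparison asks what metformin did on the fat-rich diet. Without strips, 2 of 143 miRNAs (1.40%) passed, both higher, and 0 of the members. miR-101c was lower in metformin than in high fat diet livers, with a log2 difference of -0.43, a fold of 1.35 (SE 0.12, 95% interval -0.70 to -0.16, limma adjusted p = 0.158). The 2 groups did not overlap for miR-101c, as was true of 20.3% of the tested miRNAs and, in this direction, of 11.9% (exact permutation p = 0.1). Its difference was the fourth lowest of 143. miR-101a-3p differed by -0.26 (SE 0.13, 95% interval -0.54 to 0.02, limma adjusted p = 0.435), with overlapping groups. A fit of these 2 groups alone gave miR-101c the same difference with a limma adjusted p of 0.0448, where 5 of 143 passed. On the slide row that held both groups, with 1 metformin and 3 high fat diet arrays, the differences were -0.49 for miR-101c and -0.36 for miR-101a-3p. With all spots the differences were -0.15 for miR-101c and -0.17 for miR-101a-3p, against a median of 0.16 over 139 miRNAs, of which 0.00% passed (15 at an unadjusted p under 0.05).

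The third comparison sets metformin livers, which had diet and drug together, against control livers. Neither member differed past the threshold, and 2 of 143 miRNAs (1.40%) did; with all spots 0.00% did (15 of 139 at an unadjusted p under 0.05, limma). The log2 difference was 0.03 for miR-101a-3p (95% interval -0.25 to 0.31) and -0.03 for miR-101c (95% interval -0.30 to 0.25), each with a limma adjusted p of 0.887. With all spots the differences were -0.21 for miR-101a-3p (limma adjusted p = 0.761) and 0.25 for miR-101c (limma adjusted p = 0.585). In that reading the groups did not overlap for miR-101c (exact permutation p = 0.1), as was true, in this direction, of 12.2% of 139 miRNAs. There miR-101c was detected on 1 of 3 control arrays. With the scaling percentile taken over all probes, where it lay at background, 98 of 143 miRNAs passed and the differences were 0.84 (limma adjusted p = 0.0182) and 0.78 (limma adjusted p = 0.0263), beside a median of 0.80 over all tested. On the slide row with 2 metformin and 2 control arrays the differences were 0.18 and 0.11. The high fat diet comparison and the metformin comparison share the high fat diet arrays, so the higher value in the one and the lower value in the other are not independent.

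**Figure D3:**
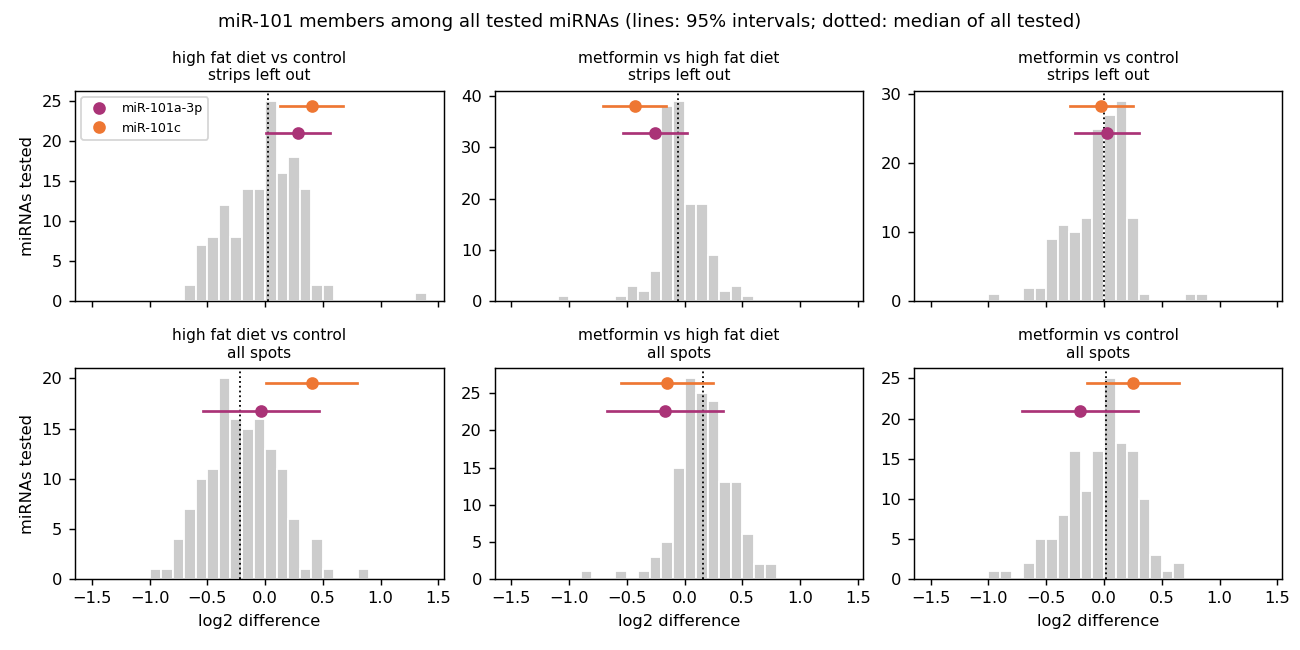
Log2 differences of miR-101a-3p and miR-101c (points, with 95% intervals as lines) over the histogram of all tested miRNAs (grey, number of miRNAs) in the 3 comparisons, in the reading without strips (143 miRNAs, top) and with all spots (139, bottom). The dotted line is the median of all tested; in the top row miR-101c lies at 0.40, -0.43 and -0.03.

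The less bright probe of each member gave a further look at the same RNA. For miR-101a-3p it was detected on all 9 arrays, with a log2 difference of 0.34 between high fat diet and control livers, -0.30 between metformin and high fat diet livers and 0.05 between metformin and control livers. The brighter probe gave 0.28, -0.26 and 0.03. The 2 probes therefore differed from each other by 0.06, 0.04 and 0.02 in size. For the less bright probe the metformin values lay below all high fat diet values, without overlap, as for 11.9% of all tested miRNAs. The gap was small, with -3.01 on the highest metformin array and -2.98 on the lowest high fat diet array. The other miR-101c probe was not detected on any array by the share of its spots above background and stayed at the floor of -4.62, so miR-101c rests on 1 probe.

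The change of one member against the other within an array does not depend on the scaling of that array. miR-101c minus miR-101a-3p was -1.20 ± 0.03 (SD, n = 3) in control, -1.08 ± 0.02 in high fat diet and -1.25 ± 0.03 in metformin livers, where the values compare changes only and not the abundance of the 2 miRNAs. The difference was thus 0.12 greater in high fat diet than in control livers and 0.17 smaller in metformin than in high fat diet livers, as a log2 difference of -0.17, with no overlap in either comparison. Each had an exact permutation p of 0.1, the smallest that 3 against 3 arrays allow, and an adjusted p of 0.3 over the 9 tests made. Of the other 142 tested miRNAs, 2.11% had a higher difference from miR-101a-3p without overlap in the first of these comparisons and 2.11% a lower one in the second, miR-101c included.

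Set against the less bright miR-101a-3p probe, the difference was 0.06 with overlapping groups in the first comparison and -0.13 without overlap in the second. For the second the exact permutation p was 0.1, with an adjusted p of 0.3 over the 9 tests. The share of all tested miRNAs without overlap against this probe was not counted. The 2 miR-101a-3p probes set against each other overlapped in all 3 comparisons (-0.06, 0.04 and -0.02). With all spots the within-array difference of the members was 0.44 and 0.020 in these 2 comparisons. It changed sign, to -0.087 and 0.036, with normexp background correction, which adds 50 to intensities that were mostly lower than that. It also changed sign, to -0.11 and 0.063, when the mean of both probes stood for a miRNA, which brings in the miR-101c probe at the floor.

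**Figure D4:**
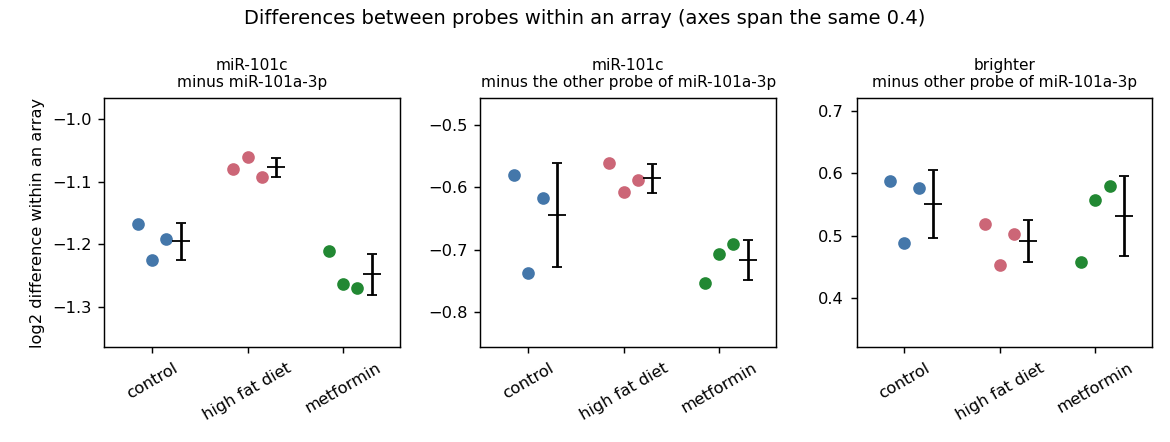
Log2 difference within an array (vertical axis; each panel spans the same range) between miR-101c and the brighter miR-101a-3p probe, between miR-101c and the other miR-101a-3p probe, and between the 2 miR-101a-3p probes, by group. Points are arrays and bars are the mean ± SD of 3; in the left panel the high fat diet mean of -1.08 stands above -1.20 in control and -1.25 in metformin livers.

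miR-101b-3p, the member from chromosome 19, gave no level that could be compared. Its brighter probe had a median intensity between 4.15 and 7.09 over the 9 arrays, and the other between 0.225 and 2.56, and on no array did either probe have over 0.5 of its spots above background. The scanner software listed it as detected on 1 of 9 arrays, the third metformin array. The 5p strands, miR-101a-5p and miR-101b-5p, had medians between -3.04 and 2.54 and were detected on 0 of 9 arrays. These values are bounds set by the background and do not show that the RNAs are absent.

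Over the 9 arrays the log2 levels of miR-101a-3p and miR-101c ran together more closely than those of miR-101a-3p and any other tested miRNA (Pearson r = 0.964, Spearman rho = 0.967). The 2 share an array, its scaling and nearly all of their sequence. Next to miR-101a-3p came miR-106b-5p, from the cluster within Mcm7, with r = 0.922, followed by miR-29a-3p at 0.915 and miR-29b-3p at 0.900, which repress collagen messenger RNAs. miR-193a-3p followed at 0.885 and miR-29c-3p at 0.879. For miR-101c the nearest outside the family were miR-29b-3p at 0.909, miR-31-5p at 0.865, let-7i-5p at 0.849, miR-29a-3p at 0.845 and miR-106b-5p at 0.843. Over all 142 miRNAs the median r with miR-101a-3p was 0.28. None of these 7 neighbours passed the threshold in any comparison, beside 14.0%, 1.40% and 1.40% of all tested. Their log2 differences between high fat diet and control livers lay between 0.20 for let-7i-5p and 0.32 for miR-193a-3p. The neighbours were chosen by correlation with the members over these same arrays, so their like differences are not a separate result.

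Other miRNAs reported to repress Ezh2 gave a measured setting for the members. Of 14 such miRNAs, 8 were tested, and 0 rose and 0 fell in each of the 3 comparisons in limma without strips (0 also at an unadjusted p under 0.05). Over all 143 tested, 14.0%, 1.40% and 1.40% passed in the 3 comparisons, and 35.7%, 9.09% and 21.0% had an unadjusted p under 0.05. Their median log2 difference was 0.04, 0.00 and 0.06 for high fat diet against control, metformin against high fat diet and metformin against control, beside 0.03, -0.06 and -0.00 over all tested. Among them miR-26b-5p differed by 0.22 (limma adjusted p = 0.222) and miR-26a-5p by 0.06 (limma adjusted p = 0.628) between high fat diet and control livers. let-7b-5p differed by 0.17 (limma adjusted p = 0.223) between metformin and control livers. With all spots 7 of the 14 were tested and 0 passed in each comparison, with 2, 2 and 1 at an unadjusted limma p under 0.05. Over all 139 tested, 6.47%, 0.00% and 0.00% passed, and 23.0%, 10.8% and 10.8% had such an unadjusted p. In that reading all 7 differences between metformin and high fat diet livers were positive, as were 113 of the 139.

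Of 15 miRNAs reported to repress autophagy genes, 7 were tested, of which 1 passed between high fat diet and control livers and 1 between metformin and control livers, beside 14.0% and 1.40% over all tested. That miRNA, miR-34a-5p, a p53-induced miRNA that also represses Sirt1, rose by 1.37 on the log2 scale in high fat diet livers (limma adjusted p = 0.000265) and was 0.80 higher in metformin than in control livers (limma adjusted p = 0.0143). With all spots these differences were 0.84 (limma adjusted p = 0.0464) and 0.63 (limma adjusted p = 0.203). The other 6 did not pass in any comparison, and 0 of the 7 passed in metformin against high fat diet livers (1 at an unadjusted p under 0.05), beside 1.40% and 9.09% over all tested. Their number includes miR-30a-5p, which represses Beclin 1 and differed by 0.06 between high fat diet and control livers (limma adjusted p = 0.714), and miR-106b-5p, which differed by 0.23 (limma adjusted p = 0.214). The median of the 7 was 0.02, -0.12 and 0.04 in the 3 comparisons.

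Each array read whole liver, where fewer cells of a type and less RNA per cell cannot be told apart. All 4 hepatocyte markers, miR-122-5p, miR-192-5p, miR-194-5p and miR-148a-3p, were detected on 9 of 9 arrays, and 0 of 4 passed in any comparison (1, 0 and 1 at an unadjusted p under 0.05), beside 14.0%, 1.40% and 1.40% over all tested (35.7%, 9.09% and 21.0% unadjusted). Of the 7 miRNAs listed for stellate and mesenchymal cells, 3 were tested, with positive differences between high fat diet and control livers for all 3, as for 78 of all 143 tested. At an unadjusted limma p under 0.05 all 3 passed, beside 35.7% of all tested. Their median difference was 0.31, beside 0.03 over all tested. With all spots 1 of the 3 did, beside 23.0%, and the 2 medians were 0.50 and -0.22. Only miR-199a-3p passed the adjusted threshold without strips, where 6 of 143 (4.20%) passed as higher over all tested. It was 0.31 higher (limma adjusted p = 0.0301; 0.57 with all spots, adjusted p = 0.158). The levels of the 3 tested stellate and mesenchymal miRNAs were also summed before taking log2. The log2 of this sum lay between -1.71 and -1.67 on control, -1.47 and -1.23 on high fat diet and -1.58 and -1.52 on metformin arrays. For this sum the groups did not overlap, with high fat diet arrays highest and control arrays lowest. The mean of the 3 log2 levels lay between -3.59 and -3.44 on control, -3.33 and -3.01 on high fat diet and -3.46 and -3.38 on metformin arrays. For this mean the control and metformin arrays overlapped, and the high fat diet arrays were above both. Of single tested miRNAs, 21.7% were higher without overlap in high fat diet than in control livers. The share was 12.6% for metformin above control livers and 11.9% for metformin below high fat diet livers. Of the other listed miRNAs, miR-145a-5p was detected on 0 of 9 arrays and miR-143-3p and miR-214-3p on 3 each. The only tested red cell marker, miR-451a, lay between -1.57 and -0.13 on control, -0.99 and -0.53 on high fat diet and -1.94 and -1.72 on metformin arrays, with miR-144-3p at 0 of 9. The endothelial miR-126a-3p lay between 1.39 and 1.55, 1.65 and 1.67, and 1.43 and 1.71 in the same order. For the 3 tested leukocyte miRNAs of 6, the log2 of their summed levels lay between -1.70 and -1.35, -1.59 and -1.32, and -1.72 and -1.59. Of the others, miR-150-5p and miR-155-5p were detected on 0 of 9 arrays. The part of these cell types in the miR-101 values was not tested.

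**Figure D5:**
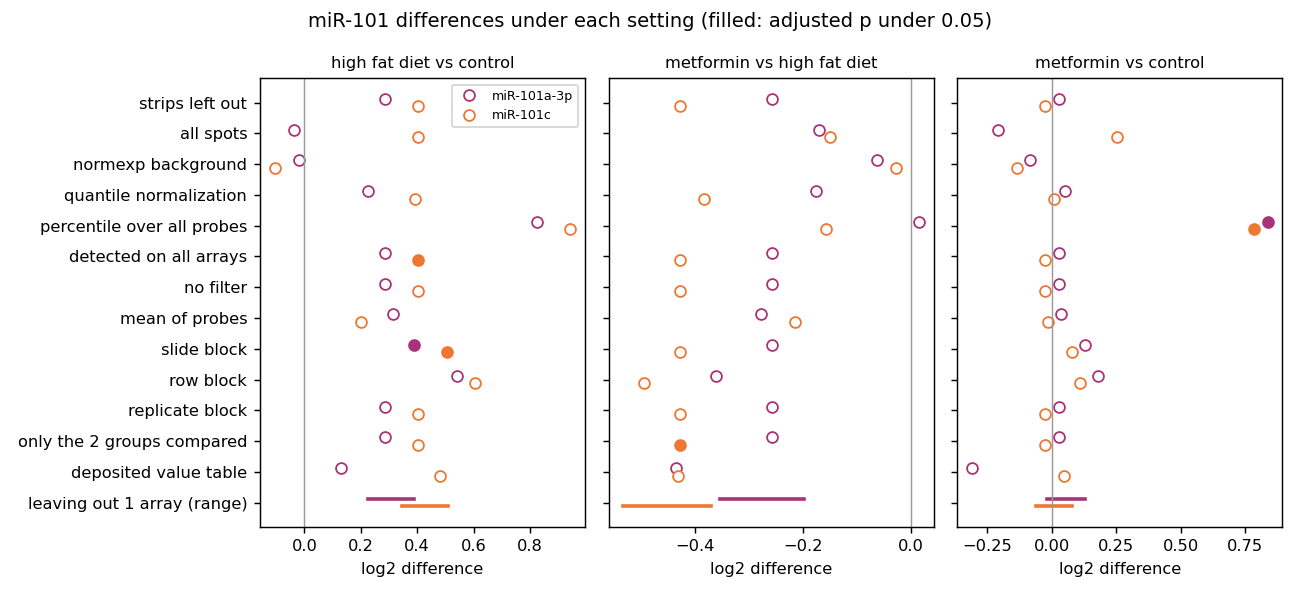
Log2 difference (horizontal axis) of miR-101a-3p and miR-101c in the 3 comparisons under each way of reading, scaling, filtering or fitting the arrays (vertical axis); filled points passed an adjusted p of 0.05, and lines at the bottom give the range over leaving out 1 array. Between high fat diet and control livers miR-101c ranges from -0.11 with normexp background correction to 0.94 with the percentile taken over all probes.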

How the data were processed

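Per the file headers, the 9 deposited scanner files hold the intensity of each spot after background subtraction by Feature Extraction 11.5.1.1 (Agilent), without scaling from array to array; the submitters' processing notes name version 10.7. The authors' deposited values per miRNA are log2 values, namely those of the total signal computed by the software plus 1 constant per array (up to 6 miRNAs an array departed by over 0.001), chosen in a way not given in the sources used here; its column medians lay between -5.67 and -4.03.

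From spot intensity, edge columns were left out in steps of 4 while at least 10% of bright spots lacked signal. A probe's value was the median over what spots were left (at least 3). It was scaled to the 75th percentile of the 187 probes found above background in over a share of 0.5 of their spots on each array, floored at 0.0406 and log2 transformed. Each miRNA was read from its brightest probe; the 143 that were detected throughout any 1 group were tested. limma 3.58.1 in R 4.3.3 fitted 3 group means, two-sided, with Benjamini-Hochberg adjustment over all tested and a threshold of 0.05. The reading with all spots took the mean of spots without outlier marks. The normexp alternative used median spot and background signals in place of mean signals, with an offset of 50. The number of arrays limits the precision, with a median standard error of 0.12. The strip finding and the fit were tested on simulated data simpler than these arrays. The simulated strips lay at a single edge, held only noise and were narrower than the widest found, of 88 columns. Displaced signal and effects of row, slide or strip on the levels were not simulated, so those faults were not tested.

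The members and lists were chosen with earlier results of these data known. Named miRNAs are the members, their other strands, the 5 tested miRNAs nearest to each member in Pearson r, and the lists' tested members; the examples given from a list were chosen after their values were seen. The reading of displaced spots and the other miR-101a-3p probe were alternatives added after seeing the data. Chromosomes and neighbouring genes are those of RefSeq GRCm38.p6; the headers name an older build, so no coordinates are given.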

Additional observations from a re-analysis of the deposited data

Results flagged for a closer look

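Signals in spots or values that entered no comparison were listed. The scanner software's total signal for miR-101b-3p was 1.37 on the third metformin array, and it listed this miRNA as detected on no other array. One spot of the less bright miR-101c probe, inside a strip of the first high fat diet array, had an intensity of 31781, against 138 at that place on the first control array and 12.5 to 38.1 on the other 7; the spot and the probe were not used.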

How the results depend on the processing

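Differences and counts are given in the order high fat diet against control (A), metformin against high fat diet (B) and metformin against control (C); within-array differences are miR-101c minus miR-101a-3p. With all spots the counts of miRNAs past the threshold were 9, 0 and 0, miR-101a-3p was -0.036 in A and -0.21 in C, miR-101c was 0.25 in C, and the within-array difference was 0.44, 0.020 and 0.46. With normexp, which moved the median of all tested to -0.13 in A and -0.10 in C, miR-101a-3p was -0.019 in A and -0.082 in C, miR-101c was -0.11 in A, the counts were 0 in B and C, and the within-array difference was -0.087 in A and 0.036 in B. With quantile normalization miR-101c was 0.0077 in C and the within-array difference 0.17 in A and -0.21 in B. With the percentile over all probes, which lay at an intensity of 0.629 to 1.60 and so at background, the medians of all tested were 0.56, 0.21 and 0.80, the counts were 1, 0 and 98, miR-101a-3p was 0.015 in B and 0.84 in C (limma adjusted p = 0.0182) and miR-101c 0.78 in C (0.0263). Testing only miRNAs detected on all arrays, fewer in number, put miR-101c in A at 0.40 (limma adjusted p = 0.0446), and with no filter the counts were 0, 0 and 0. With the mean of probes the count was 0 in B and the within-array difference -0.11 in A and 0.063 in B. The slide setting, shown as slide block, kept only the arrays of the first slide and so left out the third control array, without a block term. Its differences equal those without that array and are not a separate result. There the counts were 39, 1 and 7, miR-101a-3p was 0.39 in A (limma adjusted p = 0.0489), miR-101c 0.51 in A (0.0227) and 0.078 in C. On the same arrays, with the slide row as a block, the counts were 0, 0 and 5 and miR-101c was 0.11 in C. In fits of 2 groups the counts were 8 in A and 5 in B, and miR-101c was -0.43 in B (limma adjusted p = 0.0448). The deposited table gave counts of 0, 0 and 0, miR-101a-3p at -0.31 and miR-101c at 0.048 in C, and within-array differences of 0.35, 0.0034 and 0.36. The other miR-101a-3p probe gave within-array differences of 0.059 in A and -0.13 in B. The cause of these changes was not tested except where stated. All 19 counts of 0 are limma's, beside 1 to 45 miRNAs at an unadjusted p under 0.05.

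Leaving out 1 array at a time, the counts were 6 to 40, 0 to 3 and 1 to 8. In A they were 8 without the first and 40 without the third control array, 6 and 7 without the first and second high fat diet arrays and 13 without the second metformin array; the 8 in C was without the third control array. miR-101a-3p ranged from 0.23 to 0.39 in A, -0.35 to -0.20 in B and -0.017 to 0.13 in C, where it was below 0 without the second metformin array. miR-101c ranged from 0.35 to 0.51 in A, -0.53 to -0.37 in B and -0.062 to 0.078 in C, above 0 without the first control array, the third control array or the first metformin array. The within-array difference ranged from 0.10 to 0.13, -0.19 to -0.16 and -0.072 to -0.039. Same-numbered arrays did not deviate together throughout (correlations from -0.24 to 0.43, with 0.36 and 0.37 next to the highest). The numbers were not taken as pairs, although this check cannot show that no pairing exists. With the replicate block the counts were 22, 0 and 3, miR-101a-3p in A was 0.28 (limma adjusted p = 0.147) and miR-101c 0.40 (0.0742), and the call of neither member changed. Low signal over background limits miR-101c, miR-101b-3p and the 5p strands most.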
